A study of Mus musculus with 6 samples.

Results

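The genes examined here encode 10 core subunits of the corepressor complexes built on the histone deacetylases Hdac1 and Hdac2. They are the 2 enzymes, the Sin3 scaffolds Sin3a and Sin3b, the CoREST subunits Rcor1 and Kdm1a, the NuRD subunits Mta1, Mta2 and Chd4, and the histone chaperone Rbbp4, which serves both Sin3 and NuRD. An interval of a peak list was taken for a gene when its comma-separated gene names held the gene's symbol, whatever its region class. This gave 36 intervals over 6 lists, and the 10 genes stand among 21900 protein-coding genes. The mark profiled was acetylation of lysine 9 of histone H3 (H3K9ac), by chromatin immunoprecipitation and sequencing (ChIP-seq) of intestinal epithelial cells taken from the distal gut of C57BL/6 animals. The donors were conventionally housed, E. coli-monoassociated (colonized with E. coli alone) or germ-free, with 2 libraries per group, and all shared strain, gut region and antibody. The labels give no genotype, age, treatment time or E. coli strain. They also do not say whether the replicates came from different mice, and replicate spread may therefore be only technical.

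Hdac1 and Hdac2 are zinc-dependent enzymes that remove acetyl groups from histone tails, and they work inside multi-subunit complexes that transcription factors bring to chromatin. Sin3 is a scaffold with paired amphipathic helices, CoREST couples the deacetylases to the lysine demethylase Kdm1a, and NuRD couples them to the nucleosome remodeller Chd4. H3K9ac marks active promoters and is itself a substrate of these enzymes. In mice, loss of both enzymes from the intestinal epithelium is known to disturb its differentiation. The values below describe acetylation at the genes that encode the complexes, not the activity of the complexes.

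The promoters of Hdac2, Mta1 and Mta2 are shown because the results below turn on them: Hdac2 is an enzyme of the core, and the paralogs Mta1 and Mta2 had unlike calls. They are RefSeq sequences of GRCm38.p6, the assembly behind mm10, from 250 bases before the start site to 50 after it. In Hdac2 (chr10:36974294-36974593, plus strand), capitals mark the 93 bases that lay inside the called intervals of all 3 libraries with a peak. In Mta1 (chr12:113098028-113098327, plus strand) and Mta2 (chr19:8941670-8941969, plus strand), capitals mark GGGCGG, the GC box bound by Sp and Klf factors, and CCGGAA, a core bound by Ets factors, on either strand.
Hdac2: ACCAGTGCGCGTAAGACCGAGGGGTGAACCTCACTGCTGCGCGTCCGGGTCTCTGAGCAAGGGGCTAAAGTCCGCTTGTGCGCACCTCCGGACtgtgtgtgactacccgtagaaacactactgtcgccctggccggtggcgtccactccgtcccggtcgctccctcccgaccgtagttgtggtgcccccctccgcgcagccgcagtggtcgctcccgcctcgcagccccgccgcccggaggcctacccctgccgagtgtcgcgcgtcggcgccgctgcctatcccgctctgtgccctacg
Mta1: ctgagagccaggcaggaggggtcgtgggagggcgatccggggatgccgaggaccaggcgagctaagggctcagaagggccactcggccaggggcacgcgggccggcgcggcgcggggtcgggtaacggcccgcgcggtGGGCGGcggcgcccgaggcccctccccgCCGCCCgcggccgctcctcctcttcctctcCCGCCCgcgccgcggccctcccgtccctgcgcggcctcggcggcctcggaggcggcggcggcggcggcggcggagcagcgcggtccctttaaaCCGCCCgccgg
Mta2: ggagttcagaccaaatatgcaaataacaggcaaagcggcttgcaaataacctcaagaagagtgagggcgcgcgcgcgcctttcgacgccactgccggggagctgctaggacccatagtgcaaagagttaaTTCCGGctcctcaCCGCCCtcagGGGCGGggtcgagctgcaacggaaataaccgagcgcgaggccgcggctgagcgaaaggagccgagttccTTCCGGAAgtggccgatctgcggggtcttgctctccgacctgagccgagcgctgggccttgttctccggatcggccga
GGGCGG occurred 4 times in the Mta1 window and 2 times in the Mta2 window. CCGGAA occurred 3 times in Mta2, where 2 of the matches overlap on opposite strands, and 0 times in Mta1. The Mta1 and Mta2 windows held 0 bases of any called interval, so the marked motifs lie outside the called regions. Whether they bear on the unlike calls was not tested.

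The 6 peak lists differed widely in length. They held 3117 and 15352 intervals in the conventional, 1988 and 870 in the E. coli-monoassociated and 4430 and 17094 in the germ-free libraries (replicates 1 and 2). The background pileup behind them, a measure of depth in extended reads per base, was 0.413 and 0.381 in the conventional, 0.690 and 0.403 in the E. coli-monoassociated and 0.733 and 0.579 in the germ-free libraries. The lists give no read totals. Of 10 epithelial marker genes, 9 and 10 had a promoter peak in the conventional, 7 and 6 in the E. coli-monoassociated and 9 and 10 in the germ-free libraries. Of 7 leukocyte markers only Cd14 had one, in conventional replicate 2, E. coli-monoassociated replicate 1 and germ-free replicate 2, and of 7 stromal, endothelial and muscle markers none did.

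A promoter peak, meaning an interval within 1 kb of the start site that the authors list for it, was called for each of the 10 genes in at least 1 library and for none in all 6. Among 21900 protein-coding genes, 8097 were called in at least 1 library and 218 in all 6, so 0 of 10 in all 6 is near the background. A promoter peak was called for 2 and 10 of the 10 in the conventional libraries, against 9.08% and 32.8% of all protein-coding genes. In the E. coli-monoassociated libraries it was called for 1 and 0, against 4.21% and 1.87% of all genes, and in the germ-free libraries for 4 and 7, against 11% and 29.6%. The group means were 6 ± 5.66 genes in the conventional, 0.5 ± 0.707 in the E. coli-monoassociated and 5.5 ± 2.12 in the germ-free libraries (SD, n = 2 each), so the conventional replicates were farther apart than the conventional and germ-free means. Of the 24 member calls over the 6 libraries, 17 fell in the longest lists, conventional replicate 2 and germ-free replicate 2. This share of 70.8% was close to that of all protein-coding genes, 70.5%. In chromatin from many cells, a missing call cannot be told apart from fewer cells with the mark or less mark per cell, and a promoter with no interval may still carry it.

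**Figure D1:**
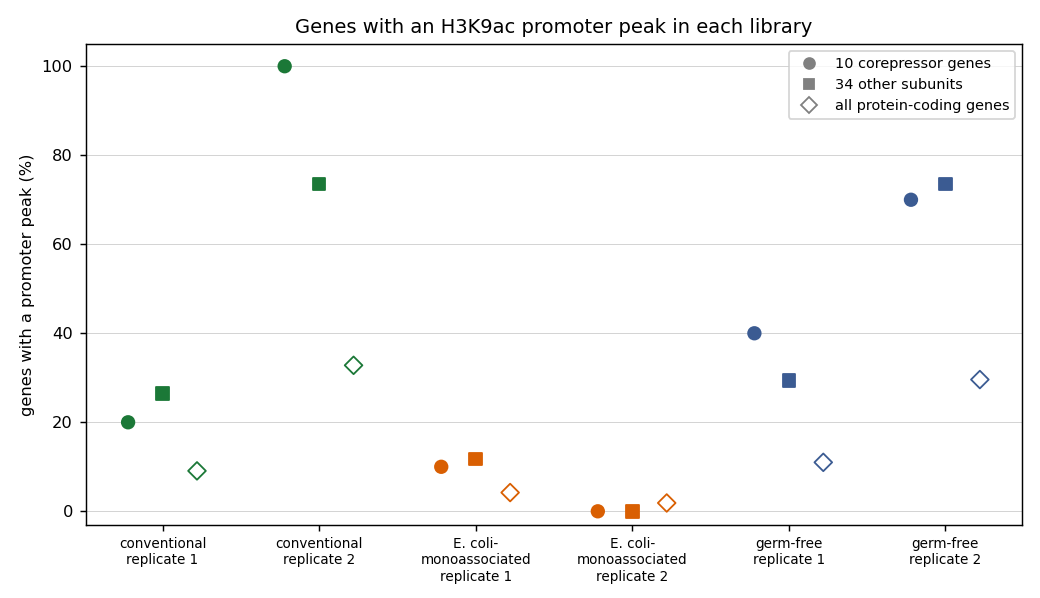
Percentage of genes with an H3K9ac promoter peak in each library (y axis) for the 10 corepressor genes (circles), 34 other subunits of Sin3, CoREST, NuRD and the MiDAC deacetylase complex (filled squares) and all protein-coding genes (open diamonds). Both sets of subunits stood above all genes in 5 libraries and had 0 calls in E. coli-monoassociated replicate 2.

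Hdac2 (chromosome 10, plus strand, listed start site 36974544) and Hdac1 (chromosome 4, minus strand, 129542646), close paralogs that form the catalytic core, were called in 3 libraries and 1 library; coordinates are those of mm10. The Hdac2 peak had 12 extended reads at its summit in conventional replicate 2 (9.41-fold over background), against 8 reads in germ-free replicate 1 (5.19-fold) and 12 in germ-free replicate 2 (8.24-fold). These read numbers carry exact 95% Poisson intervals of 6.2 to 21 for 12 reads and 3.45 to 15.8 for 8 reads, which cover counting error only. They treat each summit as an unselected count, although it is the highest point of an interval that passed the cutoff of its list. Hdac2 was not called in conventional replicate 1 or in either E. coli-monoassociated library. Hdac1 had a promoter peak only in conventional replicate 2, with 6 reads at the summit (5.07-fold, 233 to 416 bp past the start site). Its other interval, in germ-free replicate 2, was classed as upstream and lay at -1991 to -1818 bp from the start site, also with 6 reads (4.43-fold). The lowest pileup called in those lists was 4 in conventional replicate 2 and 5 in germ-free replicate 2, so both Hdac1 intervals were within 2 reads of the weakest call of their list. Fold is the authors' per-peak value, whereas rank was set here by significance within each list. Both describe a peak within its own list.

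The Hdac2 intervals lay at and before the listed start site, unlike most member intervals. In conventional replicate 2 a 1044 bp interval ran between -523 and 520 bp from the listed start site, while in the germ-free libraries the intervals ended at -158 and -5 bp. The RefSeq gene begins at 36974297, upstream of that start site, and the bases in capitals in the sequence above run from 36974294 to 36974386, across this upstream end. Conventional replicate 2 held all bases of both germ-free intervals, and the germ-free intervals shared 128 bp. By the listed start sites, 23 of the members' 31 promoter intervals lay wholly past the start site, 3 covered it and 5 ended before it. The start site listed for the 3 Rbbp4 intervals is that of its neighbour Zbtb8os, and all 3 lie before the RefSeq start of Rbbp4. Without Rbbp4, 21 of 28 lay wholly past the start site, 3 covered it and 4 ended before it. The Rcor1 intervals that covered its listed start site lay wholly past its RefSeq start. Among all genes, 77.7% and 62.8% of promoter intervals lay wholly past it in the conventional, 76% and 75.5% in the E. coli-monoassociated and 74% and 62.2% in the germ-free libraries.

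**Figure D2:**
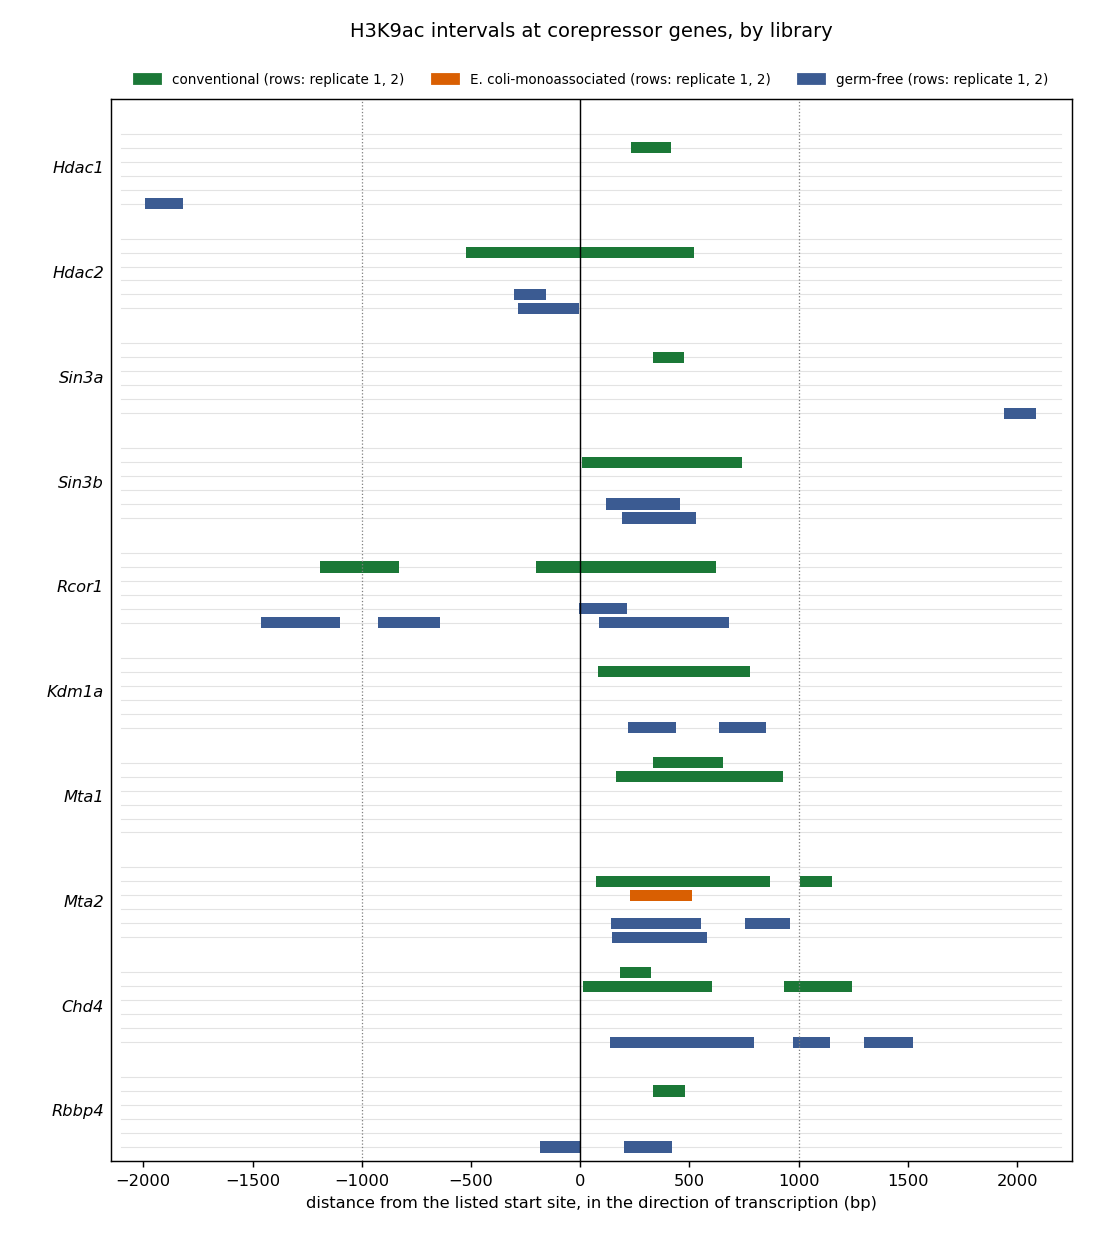
Called H3K9ac intervals (bars) at the 10 genes, by distance in bp from the listed start site in the direction of transcription. Within each gene the rows run from conventional replicate 1 and 2 at the top through E. coli-monoassociated to germ-free replicate 1 and 2 at the bottom, and the dotted lines mark the 1 kb promoter window. Most bars lie to the right of the start site, the Rbbp4 bars are placed by the start site of Zbtb8os, and the only E. coli-monoassociated bar is at Mta2.

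Among the Sin3 scaffolds, Sin3b (chromosome 8, plus strand, 72723288) was called in 3 libraries and its paralog Sin3a (chromosome 9, plus strand, 57072040) in 1. Sin3b had 8 reads at its summit in conventional replicate 2 (6.52-fold), against germ-free summits of 11 reads (6.93-fold) and 9 reads (6.33-fold). The germ-free intervals of 342 and 337 bp shared 267 bp, all within the 734 bp interval of conventional replicate 2, and no other library had a Sin3b interval. Sin3a had 5 reads in conventional replicate 2 (4.35-fold), 331 to 477 bp past its start site, in an interval that also names the noncoding transcript Gm10658. In germ-free replicate 2 the Sin3a interval was intronic, 1941 to 2087 bp past the start, with 5 reads, the lowest pileup of that list.

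Of the CoREST subunits, the scaffold Rcor1 (chromosome 12, plus strand, 111039798) had the same calls as Hdac2 and Sin3b. Its strongest promoter interval had 7 reads in conventional replicate 2 (5.79-fold), against germ-free summits of 9 reads (5.77-fold) and 8 reads (5.7-fold). The mark reached upstream in the longest lists, with another interval at -1193 to -829 bp in conventional replicate 2, and intervals at -1463 to -1098 and -925 to -644 bp in germ-free replicate 2. The strongest Rcor1 interval in germ-free replicate 2 was the outermost of these, with 10 reads (6.97-fold), outside the promoter window of the listed start site. The RefSeq start of Rcor1, 111039367, lies 431 bp upstream of the listed one, and this interval reaches within 1 kb of it. Kdm1a (chromosome 4, minus strand, 136602723), which removes methyl groups from histone lysines, had 10 reads in conventional replicate 2 (7.97-fold) and 10 in germ-free replicate 2 (6.97-fold), and no interval in the other 4 libraries. A single 700 bp Kdm1a interval in conventional replicate 2 faced 2 intervals of 217 bp in germ-free replicate 2, with 360 bp in common.

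The NuRD scaffolds Mta2 and Mta1 were called in 4 and 2 libraries, the remodeller Chd4 in 3. Mta2 (chromosome 19, plus strand, 8941920), a scaffold that binds the deacetylases, had 17 reads in conventional replicate 2 (13-fold), 14 in E. coli-monoassociated replicate 1 (8.88-fold), and germ-free summits of 10 reads (6.35-fold) and 16 reads (10.8-fold). Conventional replicate 1 and E. coli-monoassociated replicate 2 had no Mta2 interval. By significance within its own list the Mta2 peak stood at percentile 98 in conventional replicate 2, 90.2 in E. coli-monoassociated replicate 1, and 73.2 and 96.7 in the germ-free libraries, where 100 is the strongest interval. The 288 bp called in E. coli-monoassociated replicate 1 lay within the intervals of each of the other 3 libraries. With 870 intervals kept from every list, the length of the shortest, Mta2 was the only member still called, in conventional replicate 2, E. coli-monoassociated replicate 1 and germ-free replicate 2.

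Mta1 (chromosome 12, plus strand, 113098278), the paralog of Mta2, had a promoter peak in both conventional libraries and in none of the other 4. It had 8 reads at the summit in conventional replicate 1 (6.37-fold, 332 to 652 bp past the start site) and 7 in conventional replicate 2 (5.79-fold, 164 to 927 bp past it). The shorter interval lay wholly inside the longer one. The summits stood 3 reads above the lowest pileup of their lists, and the Poisson intervals were 3.45 to 15.8 and 2.81 to 14.4 reads. The lowest pileup called was 6 and 5 in the E. coli-monoassociated and 6 and 5 in the germ-free lists. These reads are not scaled for background. It was 0.413 and 0.381 in the conventional, 0.69 and 0.403 in the E. coli-monoassociated and 0.733 and 0.579 in the germ-free libraries. The Mta1 summits can therefore be set directly only against the lowest pileup of E. coli-monoassociated replicate 2, whose background lay between the conventional ones. Both summits, of 8 and 7 reads, exceeded its lowest pileup of 5. The Mta1 folds of 6.37 and 5.79, which are ratios over background, exceeded the lowest fold of each list without Mta1. That was 4.14 and 4.28 in the E. coli-monoassociated and 4.04 and 3.80 in the germ-free lists. Why Mta1 was not called in these lists was not tested. Of 8097 protein-coding genes called in any library, 58 had the Mta1 pattern (0.716%), against 117 with that of Mta2 and 821 with that of Hdac2, Sin3b and Rcor1.

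Chd4 (chromosome 6, plus strand, 125096163), the motor subunit of NuRD, had 6 and 10 reads at its strongest promoter summit in the conventional libraries (4.95-fold and 7.97-fold), against 8 in germ-free replicate 2 (5.7-fold). It was not called in germ-free replicate 1 or in either E. coli-monoassociated library. The peak of conventional replicate 1 was 1 read above the lowest of its list and 146 bp long, all within the intervals of the other 2 libraries. In the longest lists the mark continued past it, with intervals from 933 to 1243 bp in conventional replicate 2 and from 973 to 1144 and 1300 to 1525 bp in germ-free replicate 2. Rbbp4 had 6 reads in conventional replicate 2 and 7 in germ-free replicate 2 (5.07-fold in each). Its 3 intervals are shared with Zbtb8os, whose start site the authors list for them, 656 bp from the RefSeq start of Rbbp4, so they cannot be given to either gene alone. Within 5000 bp of the members' ends, promoter intervals named for Marcksl1 (beside Hdac1), Man2c1 (beside Sin3a), Tut1 (beside Mta2) and Nop2 (beside Chd4) occurred in conventional replicate 2 and germ-free replicate 2 only.

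**Figure D3:**
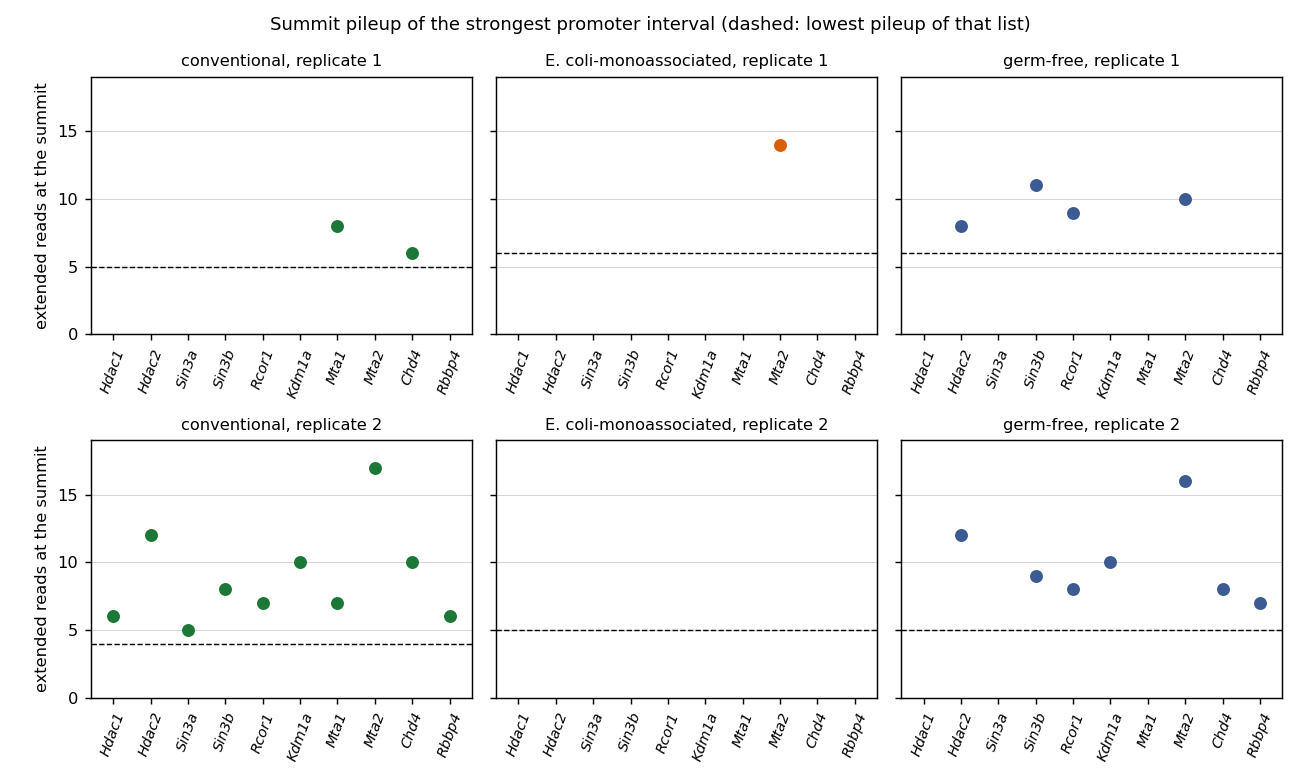
Extended reads at the summit of the strongest promoter interval (y axis) for each of the 10 genes (x axis), by library, with the lowest pileup of each list as a dashed line. Genes without a point had no promoter peak, and the reads of germ-free replicate 2 were inferred from its fold values. Mta2 reaches 17 reads, while Hdac1, Sin3a and Rbbp4 lie at 5 to 7 reads, near the dashed lines.

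The conventional and germ-free groups were compared to ask how conventional housing, as against life without microbes, goes with acetylation at these genes. Of the 2 members called in both conventional libraries, Mta1 was called in neither germ-free library and Chd4 was called in 1, against 3.25% of the 1968 genes called in both conventional libraries. Of the 4 called in both germ-free libraries (Hdac2, Mta2, Rcor1 and Sin3b), 0 were absent from both conventional libraries, against 2.47% of 2226 genes. For Mta1 the exact permutation test over 4 libraries gave p = 0.333 (two-sided), the smallest that 2 against 2 libraries allow, so this design cannot show a difference for any member, and every other member gave p = 1. The Mta1 pattern was lost when the -log10 q had to reach 5, when at least 500 bp had to overlap and when 870 intervals were kept per list. At these settings 79, 23 and 66 of all genes were called in both conventional and neither germ-free libraries, against 64 without them. The 500 bp setting could not keep Mta1, whose interval in conventional replicate 1 is 321 bp long. Without conventional replicate 1 the count became 3 and without germ-free replicate 2 it became 2, while the count over all genes became 1410 and 740, against 64 with all libraries. Without conventional replicate 2, 4 members were called in both germ-free libraries and not in the conventional one, as were 1022 of all genes, against 55 with all libraries.

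The E. coli-monoassociated and germ-free groups were compared to ask about a single bacterial species. No member was called in both E. coli-monoassociated libraries, against 248 of 21900 protein-coding genes, so 0 of 10 is near the background. Of these 248 genes, 0% lacked a germ-free peak. Of the 4 members called in both germ-free libraries, Hdac2, Rcor1 and Sin3b were called in neither E. coli-monoassociated library and Mta2 was called in 1. Among all 2226 genes called in both germ-free libraries, 65.6% had no E. coli-monoassociated peak, so 3 of 4 is near the background. Each of the 3 genes gave an exact permutation p = 0.333 (two-sided, 2 against 2 libraries). Without germ-free replicate 1 the count became 6, and that over all genes 5444, against 1461 with all libraries. The member count became 1 when the -log10 q had to reach 5, and 0 with at least 500 bp of overlap or 870 intervals per list. The count over all genes became 561, 133 and 72 in that order. The 500 bp setting could not keep Hdac2, Rcor1 or Sin3b, whose intervals in germ-free replicate 1 are 146, 220 and 342 bp long.

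The conventional and E. coli-monoassociated groups set conventional housing against colonization with 1 species. Mta1 and Chd4, the members called in both conventional libraries, were called in neither E. coli-monoassociated library, against 61.9% of 1968 genes with that pattern. Both gave an exact permutation p = 0.333 (two-sided). No member was called in both E. coli-monoassociated libraries, which is near the background of 248 of 21900 protein-coding genes. Of these 248 genes, 0% had the opposite pattern. Without conventional replicate 1 the count of 2 became 9, since conventional replicate 2 called all 10 members, and that over all genes became 6128, against 1218 with all libraries. The member count became 1 when the fold had to reach 5, and 0 when the -log10 q had to reach 5, at least 500 bp had to overlap or 870 intervals were kept per list. The count over all genes became 868, 629, 165 and 101 in that order. The 500 bp setting could not keep Mta1 or Chd4, whose intervals in conventional replicate 1 are 321 and 146 bp long. The 3 comparisons share libraries pairwise and are not independent.

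The other subunits, 34 genes, were taken by their membership of Sin3, CoREST, NuRD or MiDAC, and 3 of them belong to MiDAC. A promoter peak was called for 9 and 25 of the 34 in the conventional, 4 and 0 in the E. coli-monoassociated and 10 and 25 in the germ-free libraries. Of all protein-coding genes, 9.08% and 32.8% were called in the conventional, 4.21% and 1.87% in the E. coli-monoassociated and 11% and 29.6% in the germ-free libraries. None of the 34 was called in all 6 libraries, against 218 of 21900 protein-coding genes. Sap30l, a Sin3 subunit, Mta3, the third MTA paralog, and Elmsan1, the scaffold of the MiDAC deacetylase complex, were called in 5, all but E. coli-monoassociated replicate 2. The folds of Mta3 were 7.78 and 14.5 in the conventional libraries, 4.73 in E. coli-monoassociated replicate 1, and 6.93 and 10.1 in the germ-free libraries. The fourth subunit with an E. coli-monoassociated call was Mbd2, the methyl-CpG-binding subunit of NuRD, at 5.92-fold in replicate 1.

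Of the 9 other subunits called in both conventional libraries, 0 lacked a germ-free peak in both, against 3.25% of all genes called in both conventional libraries, so 0 of 9 is near the background. Of the 10 called in both germ-free libraries, 7 had no E. coli-monoassociated peak, led by the NuRD subunit Gatad2a, the MiDAC subunit Dnttip1 and the Sin3 subunits Arid4b and Arid4a. This is near the 65.6% among all genes called in both germ-free libraries. Of the 9 called in both conventional libraries, 6 had no E. coli-monoassociated peak, led by the NuRD remodeller Chd3, Arid4b, the Sin3 subunit Phf12 and Dnttip1. This is near the 61.9% among all genes called in both conventional libraries. No promoter peak was called in any library for 8 of the 34: Sap130, Brms1l, Rbbp7, Rcor2, Zmym3, Chd5, Gatad2b and Trerf1. Among all 21900 protein-coding genes, 8097 had a promoter peak in at least 1 library. Gatad2b had intervals in 3 libraries, all outside 1 kb of the listed start site. Rbbp7 is the paralog of Rbbp4, and Rcor2 that of Rcor1.

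**Figure D4:**
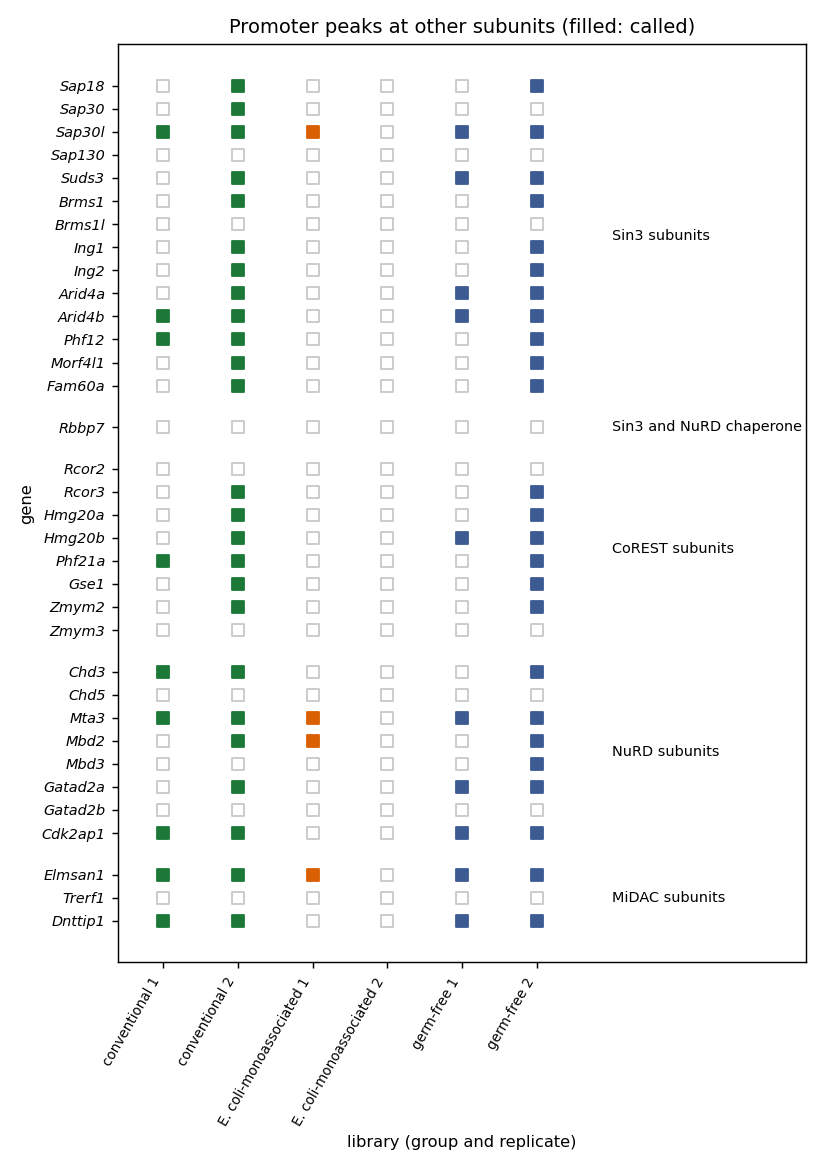
Promoter peak calls at the 34 other subunits (rows, by complex) in the 6 libraries (columns); filled squares are called. Columns conventional replicate 2 and germ-free replicate 2 each hold 25 calls, and E. coli-monoassociated replicate 2 holds none.

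Other genes of histone acetylation and deacetylation were counted in the same way, and their counts stand against the shares of all genes given above (9.08% and 32.8% conventional, 4.21% and 1.87% E. coli-monoassociated, 11% and 29.6% germ-free). Of the 6 genes of the Hdac3 and NCoR complex, 1 and 5 were called in the conventional, 1 and 0 in the E. coli-monoassociated and 1 and 4 in the germ-free libraries. Of 13 other deacetylases, 0 and 7 were called in the conventional, 1 and 0 in the E. coli-monoassociated and 0 and 5 in the germ-free libraries. Of 9 acetyltransferases, 2 and 6 were called in the conventional, 1 and 1 in the E. coli-monoassociated and 2 and 7 in the germ-free libraries. The acetyltransferase Ep300 was called in all 6 libraries, at folds of 9.91 and 16.7 in the conventional, 7.69 and 7.84 in the E. coli-monoassociated and 8.08 and 12.7 in the germ-free libraries. Differences between these sets and the 10 members were not tested.

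Many genes had the calls of the 2 deacetylases. Besides Hdac1, 1333 protein-coding genes were called in conventional replicate 2 alone, and 324 of them had their strongest interval at the same within-list percentile (42.7). Besides Hdac2, 820 genes were called in conventional replicate 2 and both germ-free libraries only. The nearest to Hdac2 in percentile were Cyb5d2, Tcim and Zzef1, each with a mean difference of 0.686 percentile points over the 3 libraries. None of these 3 was closer than the others.

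The members' promoters were rich in CpG. The promoter table held 9 of the 10 genes. The ratio of observed to expected CpG in their 300 base windows ran between 0.667 in Sin3b and 1.12 in Rbbp4, and was 1.01 in Hdac2, 1.02 in Mta1 and 1.06 in Mta2. The median over all 32851 windows was 0.384, and 31.4% of windows reached the lowest member's ratio. These windows belong to 27025 genes, more than the 21900 protein-coding genes used above, so they include windows of other genes. GGGCGG was in 8 of 9 member windows and 35.7% of all, and CCAAT, the NF-Y box, in 5 of 9 and 37.4%. CCGGAA was in 2 (Mta2 and Sin3a) against 14.9%, CACGTG in 1 (Rbbp4) against 7.15%, and TATAAA in 1 (Sin3b) against 13.6%. GCGCATGC and ATGGCGG were in 0 of 9, against 2.71% and 4.05% of all windows. Both strands were searched, and a match is only a match of letters. The shares are over all windows, most of which are poorer in CpG than the members'. Shares among windows of like CpG ratio, or of protein-coding genes alone, were not computed.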

How the data were processed

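The data were 6 peak lists of H3K9ac ChIP-seq, 1 per library. The submitters' processing notes name the build mm10, the caller MACS2 (2.1.1.20160309) and the aligner Bowtie (1.2.0). Whether a control was used, and with which options, is not given in the sources used here. Per the file headers, each deposited list gives the signal as pileup at the summit, the -log10 p-value and q-value, the fold enrichment as a ratio over background, a region class and the gene names. In germ-free replicate 2 the deposited values are shifted against the header and lack the pileup. The columns were told by their values, and reads were inferred because neighbouring fold values differ by 1 read. In all 6 lists the -log10 p matched the Poisson tail for a constant background. The lowest -log10 q was 1.35 to 1.74, so weaker enrichment is not listed, and no counts or coverage tracks were used. Lines repeating an interval were merged.

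Of 10621 gene names, 10567 matched the RefSeq table of GRCm38.p6. Genome-wide calls were counted over 21900 protein-coding genes. The call is an interval that the authors tied to the gene and that overlaps 1 kb on either side of the start site listed for it, which differed from the authors' promoter class at 3 or fewer intervals per list. Groups were compared by genes called in both libraries of 1 group and neither of the other, with an exact permutation test per member. Counting was checked on made-up lists with known answers. Intervals on summit reads are exact Poisson intervals at 95%, without allowance for the selection of summits in called intervals. Members, lists and rules were chosen with earlier results of these data known. Named genes were all members, and of the other subunits those called in 5 libraries (named after their values were seen, as were Mbd2 and Ep300) or none, and up to 4 per pattern by mean percentile. Fam60a and Elmsan1 were matched through synonyms. Tools were SciPy 1.17.1, matplotlib 3.10.9, NumPy 2.4.6 and pandas 2.3.3 under Python 3.11.15.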

Additional observations from a re-analysis of the deposited data

How the results depend on the processing

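Windows of 500 bp and 2.5 kb, the authors' promoter class, any interval of the gene, intervals naming 1 gene and, added after the data were seen, any RefSeq start kept every count of members per library and per pattern within 1.5 times of the value above. Single genes did move: Hdac1 and Sin3a were called in 2 libraries in place of 1 with the 2.5 kb window or any interval, and with intervals naming 1 gene Sin3a and Rbbp4 were called in 0. When the -log10 q had to reach 5, 1 and 5 members were called in the conventional and 2 and 4 in the germ-free libraries, while all genes called fell to 874 and 3609 in the conventional and 878 and 3434 in the germ-free libraries. The patterns then held 0 members (79 of all genes) for conventional and not germ-free, 0 (629) for conventional and not E. coli-monoassociated, and 1, Sin3b (561), for germ-free and not E. coli-monoassociated. When the fold had to reach 5, conventional replicate 1 had 1 member (1351 of all genes), and conventional and not E. coli-monoassociated had 1 (868). With at least 500 bp of overlap, conventional replicate 1, E. coli-monoassociated replicate 1 and germ-free replicate 1 had 0 members. The counts over all genes were 214, 62 and 186 there. The longest member intervals in these lists were 321, 288 and 411 bp, so none could be kept. Conventional replicate 2 had 7 members (2724 of all genes) and germ-free replicate 2 had 2 (2332). All patterns had 0, the only member count this setting allowed. Of all genes, 23 were then conventional and not germ-free, and 165 conventional and not E. coli-monoassociated. Another 9 were germ-free and not conventional, and 133 germ-free and not E. coli-monoassociated. With 870 intervals per list, conventional replicates 1 and 2 had 0 and 1 (556 and 716 of all genes). Germ-free replicates 1 and 2 had 0 and 1 (517 and 645). E. coli-monoassociated replicate 1 kept its 1 member (393 of all genes), and all patterns had 0. The same patterns over all genes, in the order just given, held 66, 101, 34 and 72.

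Leaving out single libraries moved the count for conventional and not germ-free between 1 and 3, for germ-free and not conventional between 0 and 4, for germ-free and not E. coli-monoassociated between 3 and 6, and for conventional and not E. coli-monoassociated between 2 and 9. The patterns led by E. coli-monoassociated libraries stayed at 0. With the replicate block (called and not called within both same-numbered pairs) the counts are the same by construction, 1, 0, 3 and 2 in that order, and the smallest exact p was 0.5 in place of 0.333. The labels tie the numbers to no shared animal or batch. Of 100 member results under the alternatives, 70 moved by 1.5 times or less and 30 by more. Of the 36 member intervals, 13 lay within 2 reads of the lowest pileup of their list. What sets the length of the lists was not tested.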
